A study of Mus musculus with 36 samples.

Results

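The macrophage and leukocyte genes are a list of 39 mouse genes that encode surface receptors, adaptors, complement subunits, lysosomal proteins, antigen-presenting molecules and scavenger receptors of macrophages, monocytes and other white blood cells. The list was taken by gene symbol and not by a cut on a measured value, but it was chosen with earlier results of these data known. Its counts of risen genes beside the shares of all transcripts are therefore descriptive. All 39 were found among the 29996 RefSeq transcripts counted in whole mouse kidneys, each gene was followed by its transcript of highest mean count, and the 28 genes with at least 10 counts in over 18 of the 36 libraries were analysed.

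RNA was sequenced from kidneys of mouse models of autosomal dominant polycystic kidney disease on a C57BL/6 background, on postnatal day 1 (P1), P3 and P7. Wild-type (WT) kidneys were Pkd1f/f or Pkd2f/f, which carry the floxed allele without Cre, and knockout (KO) kidneys were Pkd1f/f:HoxB7-Cre or Pkd2f/f:HoxB7-Cre. HoxB7-Cre acts in the ureteric bud and collecting duct, so leukocytes and most other kidney cells of a KO animal keep intact Pkd genes. The 12 groups of model, day and genotype held 3 libraries each, with 7179152 to 15850818 counted reads a library.

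Macrophages settle in the kidney before birth and are renewed there from local cells and from blood monocytes. They depend on the receptor Csf1r, clear debris and sense antibody through Fc receptors that signal over the adaptor Fcer1g. Their Trem receptors signal over the adaptor Tyrobp. They also make the complement subunits of C1q and present peptides on class II molecules of the major histocompatibility complex (MHC). In polycystic kidneys, macrophages gather around cysts. In whole-kidney RNA, more cells of a type and more RNA of a gene per cell cannot be told apart.

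The labels do not say that the 3 libraries of a group came from separate animals, so p-values measure the spread between these libraries. Levels are given as CPM, the counts of a gene scaled to a common library total, after scaling by trimmed mean of M-values (TMM). KO minus WT differences are log2 fold changes ± standard error from the edgeR quasi-likelihood test, with p-values adjusted by Benjamini-Hochberg over every transcript tested, and a gene is said to have risen only where its adjusted p was under 0.05. The 3 libraries of a group are listed in the order of their replicate numbers.

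The 11 genes left out were Ptprc, Coro1a, Lcp1, Ctss, Lgals3, Fcgr2b, Trem2, Ncf1, Cd74, Cd163 and Folr2. Each of them has 2 or 3 RefSeq transcripts in the table, while each of the 28 analysed genes has 1. Among all genes, 73.7% of the 4726 with several transcripts had a highest mean count under 10, against 35% of the 15732 with 1 transcript. Ctss, a cysteine protease of phagocyte lysosomes that is usually abundant, and Trem2, a lipid receptor of macrophages, were listed at 0 in every library, and Ptprc, which encodes the pan-leukocyte protein CD45, reached 3 counts at most. These low counts therefore give no level for the 11 genes, and the part of reads shared between transcripts was not tested.

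The deleted genes overlapped in level between KO and WT kidneys, in which RNA of the collecting duct is mixed with that of all other cells, so they check the labels weakly. Pkd1 ranged from 214 to 258 CPM in the 9 WT libraries of its model and from 180.3 to 293 CPM in the 9 KO libraries, and Pkd2 from 198 to 329.6 CPM and from 159 to 272 CPM in its own model. Pkd2 fell in the P7 Pkd2 KO kidneys (-0.29 ± 0.05, adjusted p = 0.0115), but Pkd1 did not fall in the P7 Pkd1 KO kidneys (0.104 ± 0.115, adjusted p = 0.556). Y-linked genes had 3926 to 5041 counts in 18 libraries and 0 to 5 in the other 18. At P7 the 3 Pkd1 KO libraries held Y-linked counts and the 3 Pkd1 WT libraries did not, so sex and genotype cannot be told apart in that comparison. The Pkd2 P7 kidneys held Y-linked counts in all 3 KO and in WT replicates 1 and 2.

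Libraries of the P3 WT groups stood apart in these genes. Pkd2 P3 WT replicate 2 was the highest of its group for 28 of 28 genes, with a median ratio of 2.68 to the mean of the other 2. The same library had 37.6 CPM summed over a list of 9 neutrophil genes, against 1.47 and 11.9 in its 2 partners, 83.7 CPM over 5 mast cell genes against 4.42 and 4.93, and 32.7 CPM over 5 B cell genes against 7.70 and 9.86. It also held 283 counts over 6 erythroid genes, against 4 and 28. In Pkd1 P3 WT, replicate 1 was the highest of its group for 24 of 28 genes, with a median ratio of 1.74, and replicate 3 the lowest for 25 of 28, with a median ratio of 0.6. The P3 medians are given with and without the high libraries.

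**Figure D1:**
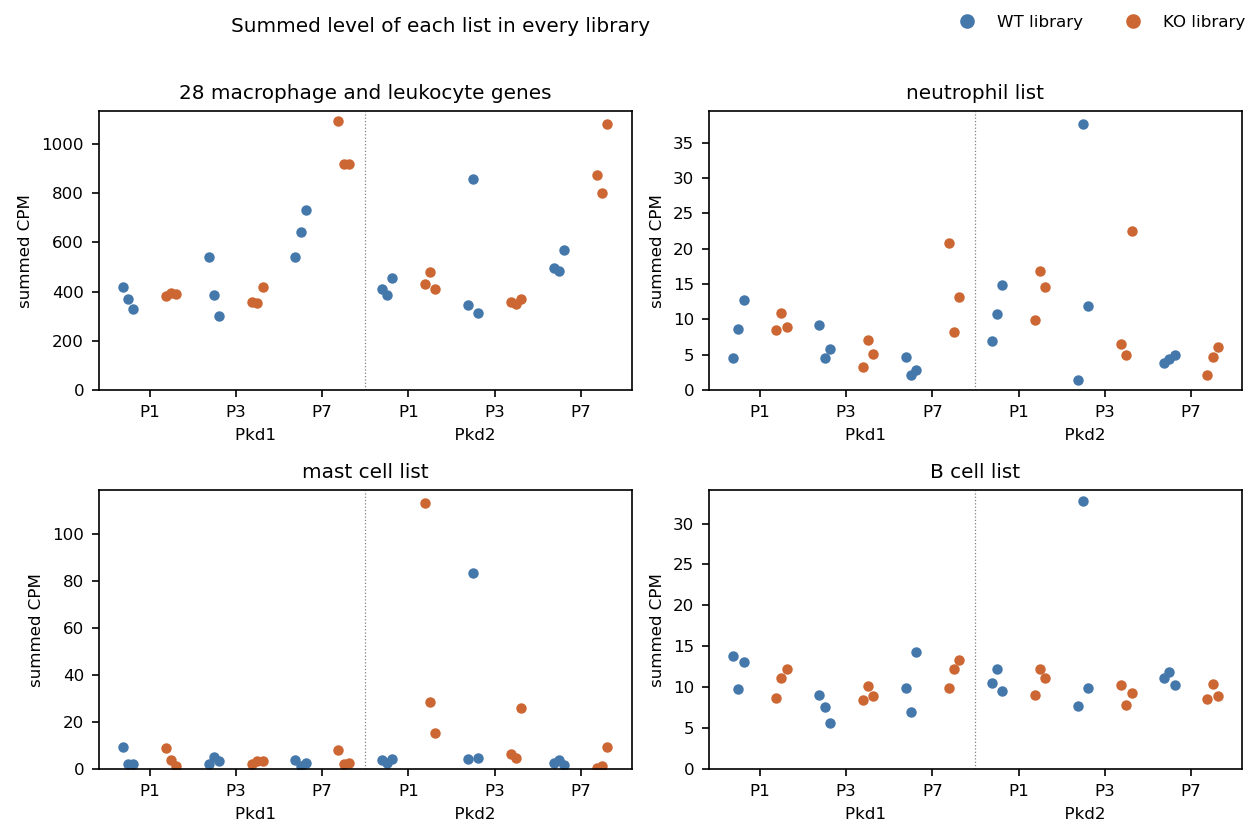
Summed TMM-normalised CPM of the 28 genes and of the neutrophil, mast cell and B cell lists in each library (blue, WT; orange, KO), by day and model. The 28 genes summed to 919 to 1093 CPM in Pkd1 KO and 800.2 to 1081 CPM in Pkd2 KO kidneys at P7, above the 541 to 729.5 CPM and 482 to 569 CPM of their WT libraries, and Pkd2 P3 WT replicate 2 stands far above its group in all 4 panels.

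At P7 the macrophage and leukocyte genes were higher in KO kidneys of both models. In Pkd1, 12 of the 28 genes rose and none fell, beside 6.32% of all 12527 transcripts tested that rose. In Pkd2, 20 of 28 rose and none fell, beside 7.88% of 12633. The median difference was 0.79 over the 28 genes in Pkd1 and 0.88 in Pkd2, where the median over all transcripts was 0.00 in each. All 3 KO libraries lay above all 3 WT libraries for 14 of 28 genes in Pkd1, beside 19.6% of transcripts, and for 26 of 28 in Pkd2, beside 18.8%.

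The 10 genes that rose in both models were Laptm5, Spi1, Cx3cr1, Aif1, Fcer1g, Fcgr3, C1qa, C1qb, C1qc and Pf4. Fitting both models together with model as a covariate, 21 of 28 rose, beside 14.6% of 13014 transcripts, with a median of 0.865, and 10 of 28 had all 6 KO libraries above all 6 WT libraries, beside 5.49%. With 1 library left out, C1qa, C1qb, C1qc and Pf4 still rose in both models in every such fit. Here and below, counts in alternative fits are given without the share of all transcripts in the same fit, unless stated. The count of risen genes fell to 5 in Pkd1 without WT replicate 1 or KO replicate 2 and to 6 without KO replicate 1. In Pkd2 it fell to 7 without WT replicate 1 or KO replicate 3, to 10 without WT replicate 2 and to 13 without KO replicate 1. With a covariate for libraries that held Y-linked counts, 11 genes rose over both models, and in a fit of all 18 Pkd1 libraries with that covariate 0 of 28 passed at P7 (6 of all transcripts did) while their median stayed at 0.71. In Pkd2 the count was 20 without the WT library that lacked Y-linked counts, and 10 when the P1 and P3 libraries of the model shared the fit.

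**Figure D2:**
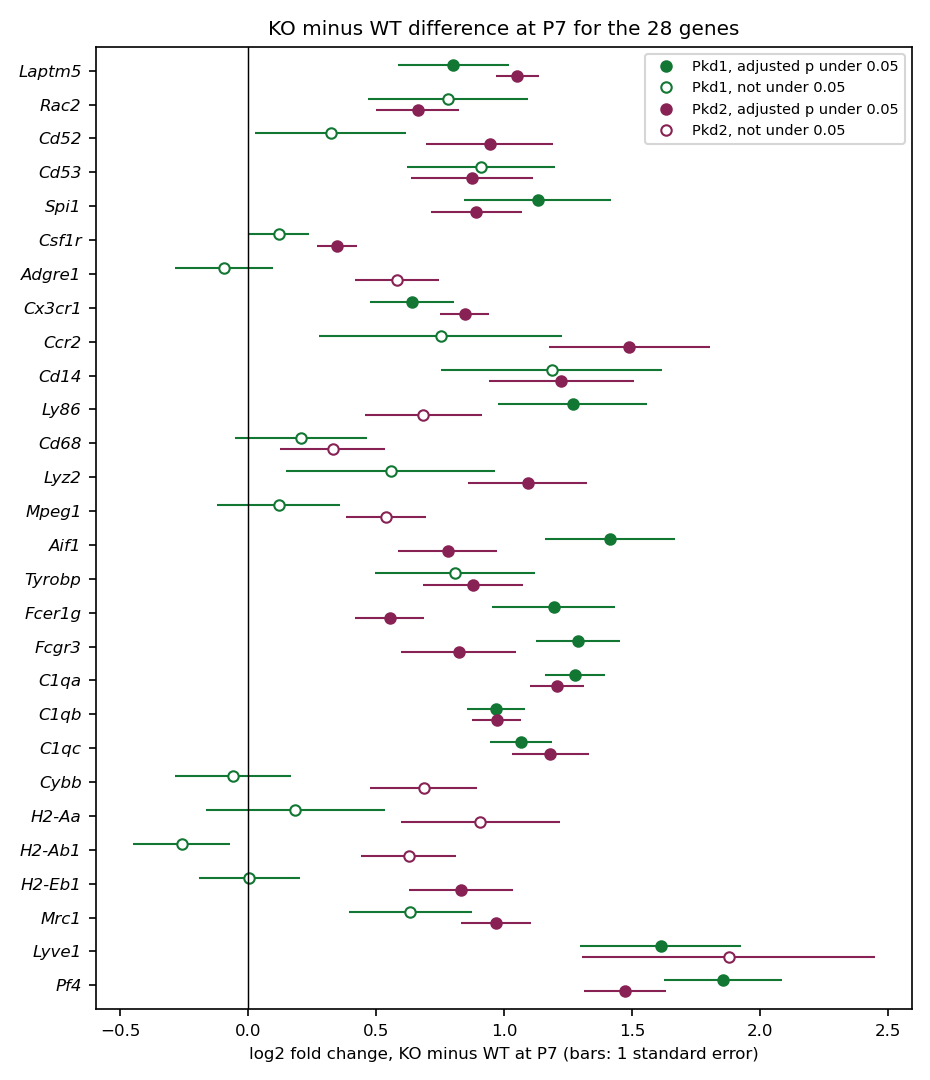
KO minus WT log2 fold change at P7 for the 28 genes in Pkd1 (green) and Pkd2 (purple), ordered by role, with 1 standard error. Filled circles, which passed adjusted p under 0.05, number 12 in Pkd1 and 20 in Pkd2, and C1qa, C1qb and C1qc lie between 0.97 and 1.28 in both models, while the MHC class II genes H2-Aa, H2-Ab1 and H2-Eb1 lie between -0.26 and 0.18 in Pkd1 and between 0.63 and 0.91 in Pkd2.

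C1qa, C1qb and C1qc encode the chains of C1q, the recognition molecule of the classical complement pathway, which tissue macrophages secrete. All 3 rose in both models, with a median difference of 1.07 in Pkd1 and 1.18 in Pkd2. C1qa in the Pkd1 P7 libraries was 33.9, 33.1 and 36.6 CPM in WT and 92.2, 78.8 and 79.5 CPM in KO, and in Pkd2 it was 24.3, 24.3 and 28.5 CPM in WT and 58.4, 53.4 and 65.3 CPM in KO. No KO library of either model overlapped a WT library. The rise was 1.28 ± 0.12 in Pkd1 (adjusted p = 0.00242) and 1.21 ± 0.10 in Pkd2 (adjusted p = 0.00068). C1qb went from 34.8, 38.1 and 34.3 CPM to 73.5, 66.2 and 69.5 CPM in Pkd1 (0.97 ± 0.11, adjusted p = 0.00586). In Pkd2 it went from 31.8, 28.9 and 28.7 CPM to 59.3, 52.6 and 62.8 CPM (0.97 ± 0.10, adjusted p = 0.00112). For C1qc the differences were 1.07 ± 0.12 (adjusted p = 0.00527) and 1.18 ± 0.15 (adjusted p = 0.00299), from WT means of 32.7 ± 3.01 CPM and 25.6 ± 3.43 CPM to KO means of 68.5 ± 4.01 CPM and 57.8 ± 10.8 CPM (SD, n = 3).

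The C1q genes lie side by side on mouse chromosome 4 (RefSeq, GRCm38.p6), C1qb at chr4:136880126-136886200, C1qc at chr4:136889801-136892936 and C1qa at chr4:136895916-136898844. The sequences upstream of C1qb and C1qc are shown because these were the C1q genes with a promoter in the reference used. C1qa had none there and was not searched. The letters AGGAAGT, a form of the site bound by the myeloid transcription factor PU.1, were searched on both strands in the 250 bases before a RefSeq transcript start of each gene, and are in capitals, here as their reverse complement. They stand in 7.69% of all 32851 promoters of that length and in those of 5 of the 18 analysed genes with a promoter in the table, Lyz2, C1qb, C1qc, Mrc1 and Pf4.
C1qb (chr4:136886201-136886450, minus strand): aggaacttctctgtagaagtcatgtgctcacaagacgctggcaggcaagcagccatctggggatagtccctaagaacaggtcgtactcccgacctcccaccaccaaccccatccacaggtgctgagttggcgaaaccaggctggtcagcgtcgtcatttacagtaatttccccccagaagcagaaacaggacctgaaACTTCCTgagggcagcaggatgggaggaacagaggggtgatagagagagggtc
C1qc (chr4:136892915-136893164, minus strand): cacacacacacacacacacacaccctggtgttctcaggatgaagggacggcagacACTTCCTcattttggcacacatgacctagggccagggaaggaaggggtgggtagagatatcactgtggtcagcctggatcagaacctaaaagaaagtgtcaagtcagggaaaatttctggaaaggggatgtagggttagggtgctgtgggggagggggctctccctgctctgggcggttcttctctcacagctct
The match begins 53 bases before the transcript start used for C1qb and 195 bases before that used for C1qc, which lies a little inside the span given above. It is a match of letters, and no binding was measured here.

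Spi1, which encodes PU.1 itself, was among the 8 pan-leukocyte genes, of which 5 were analysed, and 2 of the 5 rose in Pkd1 and all 5 in Pkd2. Spi1 was 4.80, 9.92 and 8.72 CPM in Pkd1 WT and 17.4, 19.5 and 14.3 CPM in Pkd1 KO at P7, and its groups did not overlap (1.13 ± 0.29, adjusted p = 0.0392). In Pkd2 it rose from 5.56, 5.76 and 6.32 CPM to 9.37, 10.2 and 13.0 CPM (0.89 ± 0.18, adjusted p = 0.0164). Laptm5, a lysosomal membrane protein of blood cells, had the lowest adjusted p of the 28 genes in Pkd2. Its 3 WT libraries held 22.1, 20.8 and 24.3 CPM and its 3 KO libraries 46.1, 46.4 and 46.2 CPM, for a rise of 1.05 ± 0.08 (adjusted p = 0.000523). In Pkd1 the Laptm5 libraries spread more, with 27.9, 23.8 and 41.4 CPM in WT and 61.1, 46.5 and 54.5 CPM in KO (0.80 ± 0.22, adjusted p = 0.0451), and the call was lost in 7 of 15 alternatives.

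Rac2, a GTPase of the leukocyte oxidase and cytoskeleton, Cd52, a glycoprotein of mature leukocytes, and Cd53, a tetraspanin, rose in Pkd2 (adjusted p = 0.0332, 0.0425 and 0.0459). In Pkd1 their differences were 0.78 ± 0.31, 0.32 ± 0.29 and 0.91 ± 0.29, with adjusted p of 0.122, 0.474 and 0.0693. Pkd1 P7 WT replicate 3 was the high WT library for these genes, at 18.2 CPM of Rac2 against 9.46 and 8.49 in its partners. Cd52 was 2.78, 4.09 and 4.70 CPM in Pkd2 WT and 8.13, 5.89 and 8.15 CPM in Pkd2 KO, and 6.47, 5.91 and 11.4 CPM in Pkd1 WT and 9.71, 11.3 and 8.61 CPM in Pkd1 KO. Cd53 was 4.43, 4.30 and 7.13 CPM in Pkd2 WT and 8.37, 9.37 and 11.2 CPM in Pkd2 KO. The Pkd2 groups of both genes were apart, and the Pkd1 groups of Cd52 overlapped. Without WT replicate 3, Rac2 (1.199, adjusted p = 0.0111) and Cd53 (1.199, adjusted p = 0.0167) rose in Pkd1 as well, and the Pkd1 count went from 12 to 16.

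The 6 surface genes of monocytes and macrophages were split, with 2 of them rising in Pkd1 and 4 in Pkd2. Cx3cr1, the receptor for fractalkine, was 24.5, 28.3 and 19.9 CPM in Pkd1 WT and 34.5, 39.2 and 39.4 CPM in Pkd1 KO kidneys (0.64 ± 0.16, adjusted p = 0.0392). In Pkd2 it was 21.0, 23.3 and 25.4 CPM in WT and 40.0, 40.2 and 44.7 CPM in KO (0.84 ± 0.10, adjusted p = 0.00202). The groups were apart in both models. Csf1r, the growth factor receptor that macrophages need to survive, had the smallest difference of the genes that rose in Pkd2. Its Pkd1 P7 libraries held 91.4, 99.6 and 115 CPM in WT and 112, 111 and 109 CPM in KO, which overlap (0.12 ± 0.12, adjusted p = 0.503). In Pkd2 it rose from 103, 99.5 and 106 CPM to 126, 121 and 145 CPM, by 0.35 ± 0.08 (adjusted p = 0.0243).

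Adgre1, which encodes the macrophage surface protein F4/80, was 12.7, 17.7 and 14.9 CPM in Pkd1 WT and 14.7, 13.0 and 14.7 CPM in Pkd1 KO at P7, with overlapping groups (-0.09 ± 0.19, adjusted p = 0.762). In Pkd2 the WT libraries held 18.8, 19.4 and 20.9 CPM and the KO libraries 23.5, 27.3 and 37.0 CPM. The Pkd2 groups were apart, but the difference of 0.58 ± 0.16 just missed the threshold (adjusted p = 0.0525). Ccr2, the chemokine receptor of inflammatory monocytes, was rare. It held 1.202, 1.25 and 2.43 CPM in Pkd2 WT and 4.49, 4.16 and 4.97 CPM in Pkd2 KO kidneys and rose by 1.49 ± 0.32 (adjusted p = 0.0204), while the Pkd1 difference of 0.75 ± 0.48 was within its spread (adjusted p = 0.301).

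Cd14, the co-receptor for bacterial lipopolysaccharide, was 5.34, 4.16 and 9.73 CPM in Pkd2 WT and 13.9, 15.3 and 15.3 CPM in Pkd2 KO (1.22 ± 0.28, adjusted p = 0.0275). In Pkd1 KO kidneys it ranged widely, at 22.7, 14.1 and 7.73 CPM against 3.83, 8.70 and 7.11 CPM in WT (1.19 ± 0.43, adjusted p = 0.0968). Ly86, the partner of the receptor RP105, rose in Pkd1 (1.27 ± 0.29, adjusted p = 0.0302), where KO held 10.1, 14.4 and 11.4 CPM and WT 4.24, 6.86 and 3.81 CPM. In Pkd2 its difference of 0.68 ± 0.23 did not pass (adjusted p = 0.0861), and the difference between the models did not pass either (0.60 ± 0.37, adjusted p = 0.443).

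**Figure D3:**
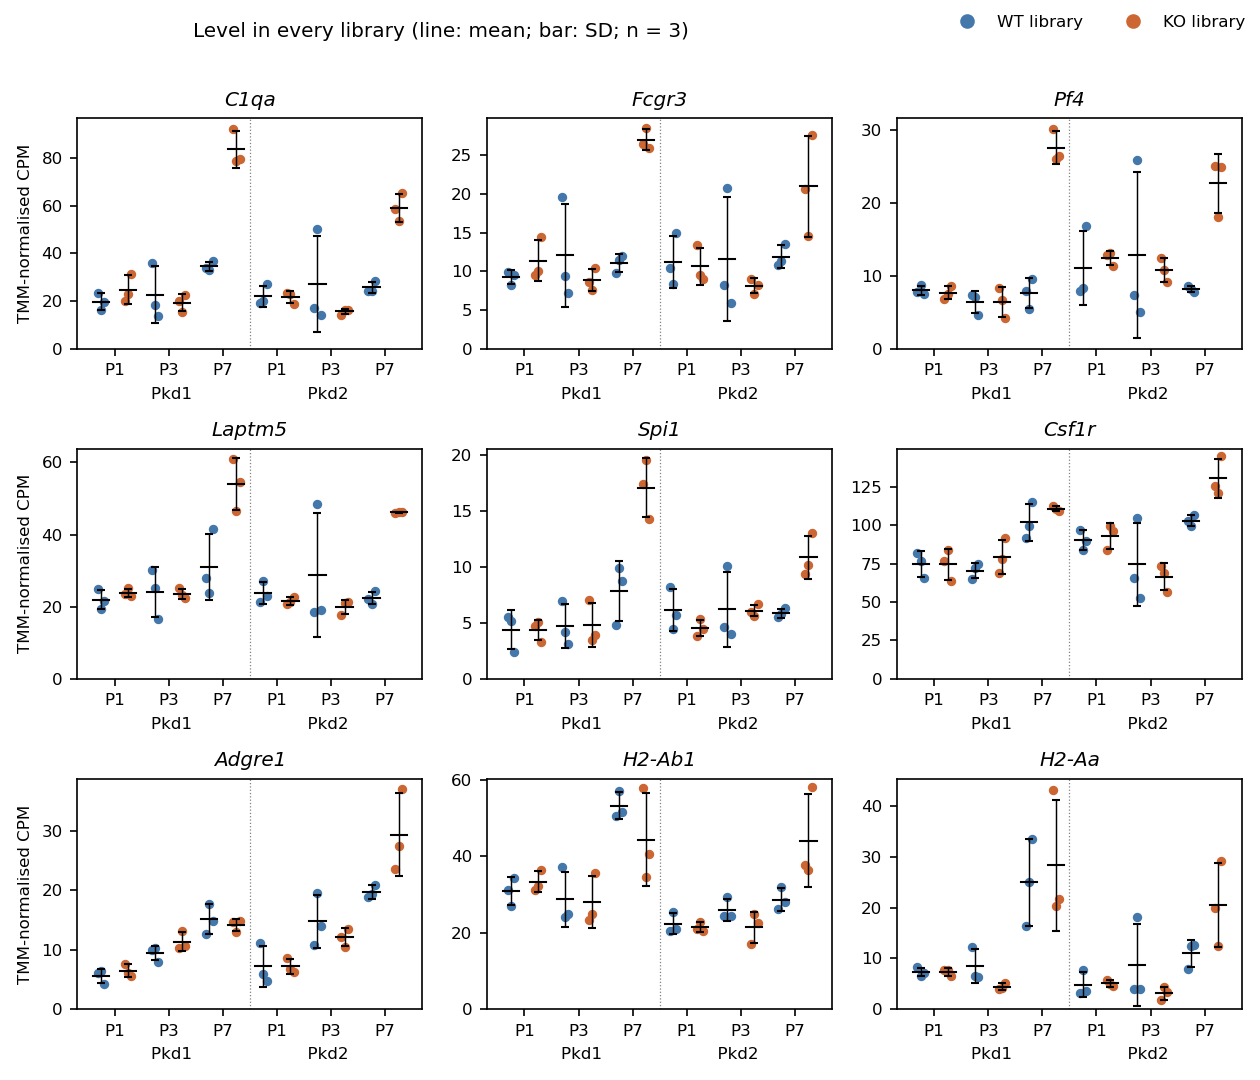
TMM-normalised CPM of 9 of the genes in each library (blue, WT; orange, KO) with the mean (line) and SD (bar, n = 3), by day and model. The KO libraries of C1qa, Fcgr3, Pf4, Laptm5 and Spi1 mix with WT at P1 and P3 and lie above WT at P7 in both models, Adgre1 is highest at P7 in WT kidneys of both models, and the high WT point at P3 in Pkd2 is replicate 2.

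Of the Fc receptor and adaptor genes, 3 of 5 were analysed, of which 2 rose in Pkd1 and 3 in Pkd2. Fcgr3, a low-affinity receptor for IgG, was 9.74, 11.4 and 12.02 CPM in Pkd1 WT and 26.4, 28.5 and 26.0 CPM in Pkd1 KO (1.29 ± 0.16, adjusted p = 0.00703). Its Pkd2 libraries held 10.8, 11.3 and 13.5 CPM in WT and 20.7, 14.6 and 27.6 CPM in KO, a smaller step with more spread (0.82 ± 0.23, adjusted p = 0.0474). Fcer1g, the gamma chain through which Fcgr3 signals, rose from 12.7, 16.6 and 24.5 CPM to 45.3, 42.2 and 35.5 CPM in Pkd1 (1.19 ± 0.24, adjusted p = 0.0206). In Pkd2 it rose from 11.5, 13.2 and 15.5 CPM to 18.7, 19.3 and 20.7 CPM (0.55 ± 0.13, adjusted p = 0.0325). Tyrobp, the DAP12 adaptor of the Trem receptors, was 10.1, 10.54 and 12.6 CPM in Pkd2 WT and 25.5, 15.4 and 19.9 CPM in Pkd2 KO (0.88 ± 0.19, adjusted p = 0.0237). In Pkd1 the high WT replicate 3 (21.1 CPM) reached into the KO range of 20.4 to 25.6 CPM, and the difference of 0.81 ± 0.31 did not pass (adjusted p = 0.113). Fcgr3 has close relatives in the genome, so reads shared with them make its count less certain.

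The lysosomal and cytosolic genes rose in 1 of 4 cases in Pkd1 and 2 of 4 in Pkd2. Aif1, which encodes the actin-bundling protein Iba1, was 4.73, 5.71 and 8.65 CPM in Pkd1 WT and 16.1, 17.6 and 17.1 CPM in Pkd1 KO (1.41 ± 0.25, adjusted p = 0.0154). Its Pkd2 levels were 4.74, 6.17 and 4.78 CPM and 7.90, 8.69 and 10.3 CPM (0.78 ± 0.19, adjusted p = 0.0348). Lyz2, lysozyme of myeloid cells, rose in Pkd2 from 47.8, 38.2 and 66.9 CPM to 104, 82.0 and 138 CPM (1.09 ± 0.23, adjusted p = 0.0209), whereas in Pkd1 the WT replicate 3 alone held 101 CPM and the groups overlapped (0.56 ± 0.41, adjusted p = 0.372). Lyz2 is nearly identical to Lyz1, so its count is less certain. Cd68, a lysosomal glycoprotein widely used to stain macrophages, had small differences in both models (0.20 ± 0.26 and 0.33 ± 0.20, adjusted p = 0.609 and 0.331). Cd68 was 4.87, 5.84 and 4.03 CPM in Pkd1 WT and 5.92, 5.23 and 5.84 CPM in Pkd1 KO. Mpeg1, a pore-forming protein of phagosomes, had a difference of 0.12 ± 0.24 in Pkd1 and 0.54 ± 0.15 in Pkd2 (adjusted p = 0.759 and 0.0557).

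The resident scavenger genes held the largest difference of the 28 in each model, Pf4 in Pkd1 and Lyve1 in Pkd2. Pf4, a chemokine made by platelets and by resident macrophages, was 7.93, 5.44 and 9.53 CPM in Pkd1 WT and 30.1, 26.1 and 26.5 CPM in Pkd1 KO kidneys, 3.61-fold in the ratio of means (1.85 ± 0.23, adjusted p = 0.00691). In Pkd2 it went from 8.64, 8.19 and 7.78 CPM to 25.1, 18.1 and 24.9 CPM (1.47 ± 0.16, adjusted p = 0.00164). The summed level of 5 other platelet genes was 21.0 to 32.2 CPM in Pkd1 WT and 22.9 to 28.9 CPM in Pkd1 KO, and 28.7 to 31.8 CPM and 29.1 to 30.2 CPM in Pkd2. Over both models 0 of the 4 tested passed in either direction. Ppbp, with a mean of only 6.11 counts, differed by 1.54 ± 0.56 (adjusted p = 0.0596). Gp1ba differed by 0.10 ± 0.37, Itgb3 by 0.092 ± 0.183 and Itga2b by -0.175 ± 0.139. The part of platelets in the Pf4 result was not tested. Lyve1, a hyaluronan receptor of resident macrophages and lymphatic endothelium, rose from 4.45, 7.13 and 3.23 CPM to 18.2, 13.3 and 13.8 CPM in Pkd1 (1.61 ± 0.32, adjusted p = 0.0191). Its Pkd2 KO libraries held 5.89, 10.6 and 28.9 CPM against 4.58, 2.43 and 5.43 CPM in WT, which do not overlap but spread too far to pass (1.88 ± 0.57, adjusted p = 0.0658). The lymphatic genes Prox1 and Flt4 fell in KO over both models (-2.45 ± 0.70 and -0.26 ± 0.08, adjusted p = 0.0207 and 0.0257). Pdpn and Ccl21a of the same list had mean counts of 0.5 and 0 and were not tested. The part of lymphatic vessels in the Lyve1 result was not tested either.

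Mrc1, the mannose receptor CD206, was 37.7, 30.9 and 36.9 CPM in Pkd2 WT and 63.1, 60.1 and 82.5 CPM in Pkd2 KO (0.97 ± 0.14, adjusted p = 0.00472). Its Pkd1 KO libraries, at 63.7, 55.2 and 52.1 CPM, also lay above the WT libraries at 36.4, 50.01 and 24.0 CPM, but the difference of 0.63 ± 0.24 did not pass (adjusted p = 0.109).

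Class II MHC molecules are made by macrophages, dendritic cells and B cells, and 3 of the 4 genes were analysed. H2-Ab1 was 50.6, 57.1 and 51.7 CPM in Pkd1 WT and 57.8, 34.5 and 40.6 CPM in Pkd1 KO at P7, with overlap (-0.26 ± 0.19, adjusted p = 0.369). In Pkd2 the WT libraries held 26.1, 31.8 and 27.97 CPM and the KO libraries 37.6, 36.5 and 58.2 CPM, apart but not past the threshold (0.63 ± 0.18, adjusted p = 0.0606). H2-Eb1 was the class II gene that rose, and only in the Pkd2 test, from 17.2, 18.8 and 15.6 CPM to 28.7, 22.7 and 40.2 CPM (0.83 ± 0.20, adjusted p = 0.0326). In Pkd1 it held 28.2, 35.6 and 38.7 CPM in WT and 43.1, 28.4 and 31.2 CPM in KO (0.00 ± 0.20, adjusted p = 0.99). H2-Aa differed by 0.18 ± 0.35 in Pkd1 and 0.91 ± 0.31 in Pkd2 (adjusted p = 0.743 and 0.0918). H2-Aa was 16.3, 25.1 and 33.6 CPM in Pkd1 WT and 43.2, 20.2 and 21.6 CPM in Pkd1 KO, so the groups overlapped.

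Promoters of class II genes share the X and Y boxes, over which a complex that needs the activator Ciita assembles. The 250 bases before H2-Aa and H2-Eb1 are shown because these were the analysed class II genes with a promoter in the reference used. H2-Ab1 had none there and was not searched. The Y box letters CTGATTGG, searched on both strands, are in capitals.
H2-Aa (chr17:34287824-34288073, minus strand): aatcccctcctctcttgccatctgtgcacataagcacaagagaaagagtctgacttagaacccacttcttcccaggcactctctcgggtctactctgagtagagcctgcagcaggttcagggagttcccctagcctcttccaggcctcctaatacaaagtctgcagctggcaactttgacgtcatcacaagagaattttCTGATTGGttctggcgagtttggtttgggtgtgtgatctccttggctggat
H2-Eb1 (chr17:34305617-34305866, plus strand): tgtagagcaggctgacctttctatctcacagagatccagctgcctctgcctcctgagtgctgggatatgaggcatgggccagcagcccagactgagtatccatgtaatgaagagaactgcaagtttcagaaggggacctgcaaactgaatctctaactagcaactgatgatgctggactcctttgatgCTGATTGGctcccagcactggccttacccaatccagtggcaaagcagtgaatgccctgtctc
The Y box begins 51 bases before the start of H2-Aa and 62 bases before that of H2-Eb1. Of the 18 analysed genes with a promoter in the table only these 2 held it, and 3.83% of all 32851 promoters did. The X2 box letters TGANGNNA begin 74 bases before the start of H2-Aa, just before its Y box. In H2-Eb1 their only match begins 143 bases before the start and does not adjoin its Y box. So loose a motif stands in 42.0% of all promoters and in those of 13 of the 18 genes.

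Cybb, the membrane subunit gp91phox of the phagocyte NADPH oxidase, was 9.67, 15.4 and 14.8 CPM in Pkd1 WT and 13.8, 11.6 and 12.8 CPM in Pkd1 KO at P7 (-0.06 ± 0.23, adjusted p = 0.871). Its Pkd2 groups were apart, at 8.72, 7.01 and 11.8 CPM and 12.2, 16.0 and 15.7 CPM, with a difference of 0.69 ± 0.21 (adjusted p = 0.0655). Cybb, Adgre1, H2-Ab1 and H2-Eb1 had differences of 0.58 to 0.83 in Pkd2 and of -0.26 to 0.00 in Pkd1.

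The difference between the models was tested itself as the interaction of genotype and model at P7. Under edgeR, 0 of 28 genes passed, beside 0% of 13014 transcripts, and DESeq2 passed 0 of 28 as well. An unadjusted p under 0.05 was held by 5 of 28 genes and by 2143 of the 13014 transcripts, a similar share. The 5 were H2-Ab1 (-0.87 ± 0.28, adjusted p = 0.189), H2-Eb1 (-0.81 ± 0.30, adjusted p = 0.223), Adgre1 (-0.66 ± 0.25, adjusted p = 0.232) and Cybb (-0.73 ± 0.32, adjusted p = 0.28), all lower in Pkd1, and Fcer1g (0.65 ± 0.30, adjusted p = 0.298), higher in Pkd1. Without Pkd1 P7 WT replicate 3, Fcer1g (0.95, adjusted p = 0.0264) and Aif1 (0.94, adjusted p = 0.0441) passed, both higher in Pkd1. For C1qb the difference between the models was 0.01 ± 0.13, the smallest of the 28.

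At P1, 0 of 28 genes passed in either model under edgeR or DESeq2, beside 0% of transcripts in Pkd1 and 0% in Pkd2. Unadjusted p-values under 0.05 numbered 0 in Pkd1, beside 157 of 12527 transcripts, and 2 in Pkd2, beside 708 of 12633. The medians over the 28 genes were 0.05 and 0.01, and over both models 0 of 28 passed, beside 0%. C1qa was 23.2, 16.3 and 19.7 CPM in Pkd1 WT and 19.99, 22.8 and 31.4 CPM in Pkd1 KO, and 19.1, 19.8 and 27.0 CPM and 23.2, 22.8 and 18.6 CPM in Pkd2. Pf4 was 7.77, 8.69 and 7.54 CPM in Pkd1 WT and 6.87, 7.56 and 8.65 CPM in Pkd1 KO at this age, with overlap. Mast cell genes stood high in the Pkd2 P1 KO kidneys, at 15.6 to 113 CPM over 5 genes against 2.41 to 4.29 CPM in WT, and all 5 were detected there, though 0 of the 4 tested passed. The 28 genes summed to 413 to 478 CPM in those KO libraries and 388 to 455 CPM in WT. The part of mast cells was not tested.

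At P3 again 0 of 28 genes passed in either model under either tool, beside 0.00798% of transcripts in Pkd1, 0% in Pkd2 and 0.0307% over both models. In Pkd1 the median was -0.14, with 1 gene at an unadjusted p under 0.05, beside 1748 of 12527 transcripts. In Pkd2 it was -0.56 and 27 of 28 genes leaned lower in KO. Cd14 alone leaned higher, from a WT mean of 2.063 CPM to a KO mean of 5.768 CPM. Of the 28 genes, 2 had an unadjusted p under 0.05, beside 565 of 12633 transcripts. The lower lean of the 27 rests on WT replicate 2: without it the median was 0.05 and 18 of 28 leaned higher, with 0 past the threshold. C1qa shows the pattern, at 16.9, 50.3 and 14.1 CPM in Pkd2 P3 WT and 14.3, 16.2 and 16.4 CPM in KO. Lyve1 was 4.55, 66.8 and 2.78 CPM in those WT libraries, so that WT replicate 2 held the highest Lyve1 level of all 36 libraries. In Pkd1 P3 the median turned to 0.15 without WT replicate 1, with 0 past the threshold, and was -0.27 without WT replicate 3. WT replicate 1 held C1qa at 36.1 CPM against 18.3 and 13.5.

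**Figure D4:**
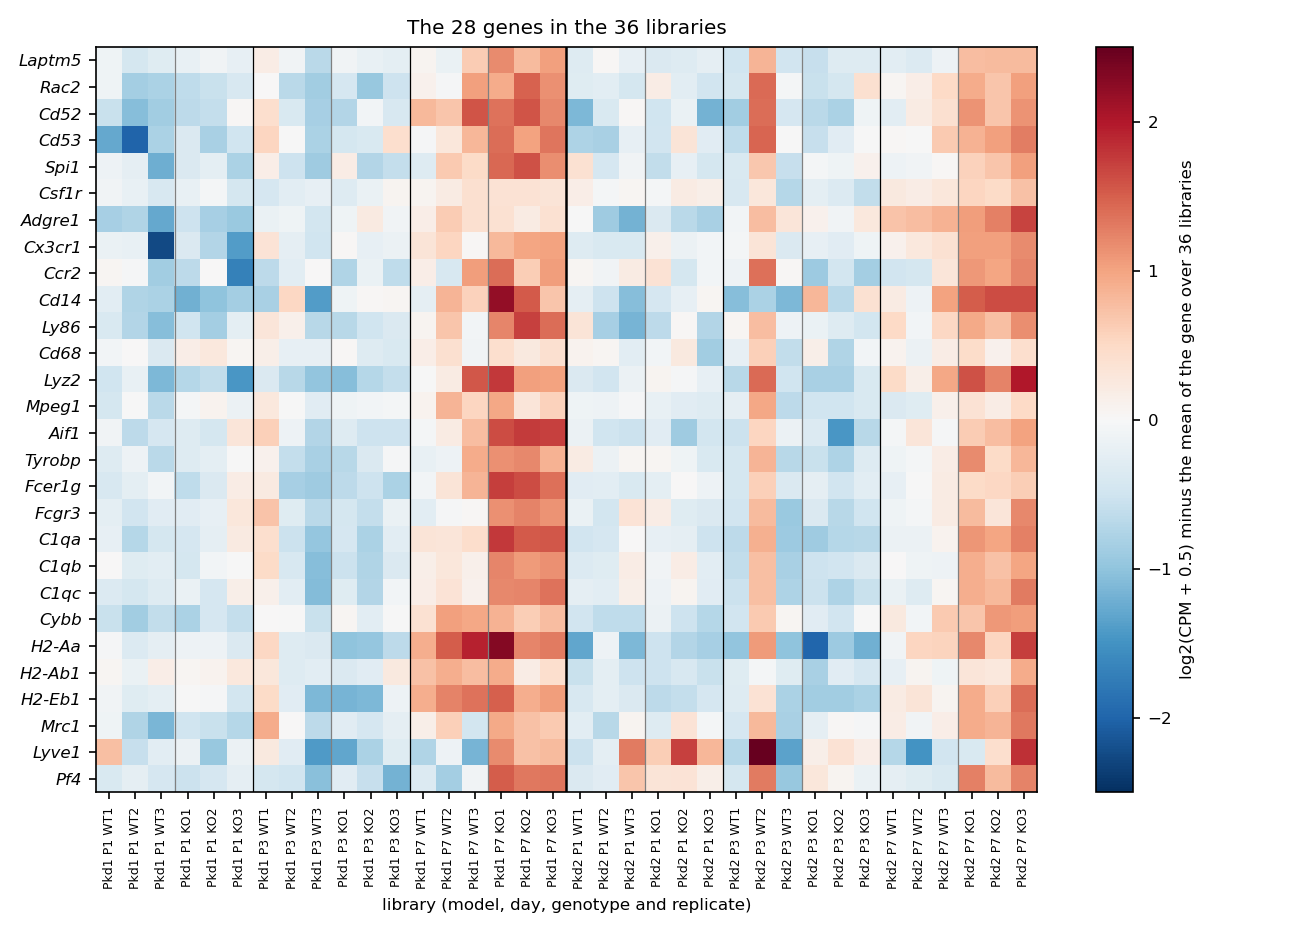
log2(CPM + 0.5) of the 28 genes in the 36 libraries, each gene centred on its mean over all libraries (red, above; blue, below; scale cut at 2.5). The 6 KO libraries at P7 are red for most genes in both models, Pkd2 P3 WT replicate 2 is red for most genes too, and the class II genes are red in Pkd1 WT as well as KO kidneys at P7.

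Whether the KO effect itself grew between P1 and P7 was tested by the interaction of genotype and day. In Pkd1, 2 of 28 genes passed, beside 1.22% of transcripts that rose, Pf4 (1.91 ± 0.29, adjusted p = 0.00861) and C1qb (0.96 ± 0.19, adjusted p = 0.0263). In Pkd2, 3 of 28 passed, beside 1.49%, Laptm5 (1.19 ± 0.14, adjusted p = 0.002), C1qa (1.23 ± 0.20, adjusted p = 0.00869) and C1qc (1.17 ± 0.23, adjusted p = 0.0226). The median interaction was 0.79 in Pkd1 and 0.82 in Pkd2, beside 0.00 and -0.01 over all transcripts. Pf4 in Pkd1 and Laptm5 and C1qa in Pkd2 passed with each library left out in turn, and C1qb and C1qc did not. DESeq2 passed 7 in Pkd1 and 10 in Pkd2, and with the Y-linked covariate edgeR passed 0 in Pkd1, with a median of 0.40. In Pkd1 the count ranged from 1 to 10: it was 1 without P1 WT replicate 1, P1 KO replicate 1 or 2, P7 WT replicate 1 or P7 KO replicate 1 or 2, 6 without P1 KO replicate 3 and 10 without P7 WT replicate 3. In Pkd2 it was 5 without P1 WT replicate 1, P7 WT replicate 3 or P7 KO replicate 2.

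The age of the kidney was compared within WT libraries. From P1 to P7 in Pkd1 WT, 10 of 28 rose and none fell, beside 8.92% of transcripts that rose, and 19 of 28 had all P7 libraries above all P1 libraries, beside 17.8%. Those that rose were Cd52, Cd53, Csf1r, Adgre1, Lyz2, Mpeg1, Cybb, H2-Aa, H2-Ab1 and H2-Eb1. The median was 0.79, beside 0.01 over all transcripts. In Pkd2 WT, 2 of 28 rose, beside 7.95%, Adgre1 and Cx3cr1, and 13 of 28 had groups that did not overlap, beside 22.3%. The Pkd2 fit takes its spread from the P3 libraries too, and without P3 WT replicate 2 the count was 8, with Rac2, Cd14, Lyz2, Cybb, H2-Aa and H2-Eb1 beside Adgre1 and Cx3cr1. It was 0 without P1 WT replicate 2 or 3 and 1 without P7 WT replicate 1, 2 or 3, and DESeq2 passed 4. In Pkd1 the count was 5 without P1 WT replicate 2 and 6 without P7 WT replicate 3.

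Adgre1 was the member that rose with age in both models, from 6.09, 6.45 and 4.30 CPM at P1 to 12.7, 17.7 and 14.9 CPM at P7 in Pkd1 WT (1.43 ± 0.23, adjusted p = 0.003). In Pkd2 WT it went from 11.1, 5.85 and 4.67 CPM to 18.8, 19.4 and 20.9 CPM (1.43 ± 0.32, adjusted p = 0.0153). The P3 libraries of Pkd1 lay between, at 9.99, 10.3 and 7.997 CPM. H2-Aa rose from 8.21, 6.59 and 7.19 CPM to 16.3, 25.1 and 33.6 CPM in Pkd1 WT (1.76 ± 0.32, adjusted p = 0.00502). In Pkd2 WT it went from 3.13, 7.64 and 3.60 CPM to 7.89, 12.4 and 12.6 CPM (1.17 ± 0.61, adjusted p = 0.209). Cybb was 4.86, 3.79 and 4.65 CPM at P1 and 9.67, 15.4 and 14.8 CPM at P7 in Pkd1 WT (1.57 ± 0.27, adjusted p = 0.00371).

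Pf4, C1qb and Fcgr3 did not pass for age in WT kidneys. Pf4 was 7.77, 8.69 and 7.54 CPM at P1 and 7.93, 5.44 and 9.53 CPM at P7 in Pkd1 WT (-0.07 ± 0.27, adjusted p = 0.891) and differed by -0.45 ± 0.56 in Pkd2 WT (adjusted p = 0.618). C1qb differed by 0.36 ± 0.31 and 0.04 ± 0.37 (adjusted p = 0.458 and 0.954). Fcgr3 differed by 0.25 ± 0.33 and 0.06 ± 0.42 (adjusted p = 0.636 and 0.941). The P7 WT libraries enter both the age and the genotype comparison, so the values are set side by side and not related to each other. In Pkd1 the 3 P7 WT libraries lacked Y-linked counts while P1 WT replicates 1 and 3 had them, and with that covariate 0 of 28 passed for age while the median was 0.81.

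Levels between genes can be compared only per length of transcript. In Pkd1 WT kidneys at P7, Lyz2 (44.3 CPM per kb), H2-Ab1 (43.9), C1qa (33.2) and C1qb (32.8) stood highest, and Cybb (2.80), Lyve1 (1.71) and Ccr2 (0.872) lowest. In Pkd1 WT at P1 the order began with C1qb (25.6 CPM per kb), H2-Ab1 (25.4) and Csf1r (19.3), and Ccr2 (0.506) was again last. Csf1r, Adgre1, Cx3cr1, Mrc1 and C1qa, which mark macrophages, were counted in every library, at no less than 3.68 CPM. They are among the genes kept by the count filter, so their detection does not check the name of the list. Cd163, Trem2, Folr2 and Fcgr2b of the same list were left out for low counts.

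Other genes of the same pathways were counted over both models at P7, in the fit in which 14.6% of all transcripts rose and 11.9% fell. Of 7 leukocyte actin and signalling genes tested, 5 rose and none fell, led by Plek, a substrate of protein kinase C in blood cells (1.12 ± 0.16, adjusted p = 0.000421), and Nckap1l, the Hem1 subunit of the WAVE complex (0.66 ± 0.12, adjusted p = 0.00179). Of 5 Fc receptor partners tested, the high-affinity receptor Fcgr1 (1.21, adjusted p = 0.012) and the kinase Btk (1.26, adjusted p = 0.00187) rose, and Plcg2 fell (-0.69, adjusted p = 0.000735). Of 7 complement partners tested, 4 rose, among them the anaphylatoxin receptor C3ar1 (0.72, adjusted p = 0.0023), C3 (1.22, adjusted p = 0.0215) and properdin, Cfp (0.52, adjusted p = 0.0226).

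Of 9 other macrophage genes tested, 3 rose and 1 fell. Ms4a6d (1.56, adjusted p = 0.00143) and the scavenger receptor Msr1 (1.48, adjusted p = 0.00132) rose. Mertk, a receptor for apoptotic cells, fell from 78.4, 97.6 and 77.1 CPM to 45.4, 60.4 and 49.8 CPM in Pkd1 and from 97.5, 104 and 92.6 CPM to 75.7, 64.0 and 57.9 CPM in Pkd2 (-0.63 ± 0.10, adjusted p = 0.000668). Of 4 class II partners and 2 myeloid transcription factors tested 0 passed. Of 7 inflammatory mediators tested 3 rose. Il6, the cytokine interleukin 6, was at 0.07, 0.136 and 0 CPM in Pkd1 WT and 1.81, 5.39 and 0.876 CPM in Pkd1 KO, and at 0.225, 0.208 and 0 CPM and 1.63, 1.96 and 1.55 CPM in Pkd2 (adjusted p = 0.000642).

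Markers of other cells were set beside the P7 result. Of 5 T cell and 4 B cell genes tested 0 passed, and the B cell list summed to 6.93 to 14.4 CPM in Pkd1 WT, 9.86 to 13.4 CPM in Pkd1 KO, 10.3 to 11.9 CPM in Pkd2 WT and 8.52 to 10.4 CPM in Pkd2 KO. Among the T cell genes only Cd247 and Cd4 had a mean over 10 counts, and Lck and Cd8a were at 0 in every library. Such low counts say little about T cells. NK cell genes summed to 1.33 CPM at most in every P7 library. The neutrophil list of 9 genes, 2 of them at 0 in Pkd1 P7 WT and KO, summed to 2.11 to 4.66 CPM in Pkd1 WT and 8.28 to 20.8 CPM in Pkd1 KO, and to 3.91 to 5.03 CPM and 2.17 to 6.06 CPM in Pkd2. Only S100a8 passed of the 6 tested (1.09 ± 0.36, adjusted p = 0.0406), and myeloperoxidase (Mpo) was 12.2, 0.078 and 0.365 CPM in the Pkd1 KO libraries. The count of 12 risen genes in Pkd1 became 16 when KO replicate 1, the library high in Mpo, was left out together with WT replicate 3, as it did without WT replicate 3 alone, and was 6 without KO replicate 1 alone. The part of neutrophils in the Pkd1 result was not tested.

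Kidney epithelial and endothelial markers moved the other way. The 4 proximal tubule genes all fell over both models, with summed levels of 3284 to 4371 CPM in Pkd1 WT, 1269 to 2199.7 CPM in Pkd1 KO, 3402 to 4394 CPM in Pkd2 WT and 2411 to 2682 CPM in Pkd2 KO. All 4 collecting duct genes tested fell too, among them the water channels Aqp3 (-1.02 ± 0.09, adjusted p = 1.71e-05) and Aqp2 (-2.32 ± 0.41, adjusted p = 0.00149), and 3 of 4 podocyte and 3 of 3 blood endothelial genes fell. CPM are shares of a library, and the part of lower epithelial RNA in the higher shares of leukocyte genes was not tested.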

How the data were processed

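Total RNA of whole kidneys was sequenced in 36 libraries of 12 groups. Per the submitters' processing notes the authors used CASAVA 1.8.2, TopHat2 2.1.0, HTSeq and mm10, and deposited raw counts for 29996 RefSeq transcripts. The study's methods give default HTSeq options, under which reads are counted by strand and a read that overlaps several features is counted for none. Whether the library kit marks strand is not given in the sources used here. Transcripts were named by accession from RefSeq (28978 matched). The members and gene lists were chosen with earlier results of these data known. A gene was taken by its transcript of highest mean count and analysed with at least 10 counts in over 18 libraries. All analysed genes are named, and list genes by adjusted p.

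Transcripts that reached 10 counts in 3 or more libraries of the models compared were tested with edgeR 4.0.16 (TMM factors, quasi-likelihood F test, Benjamini-Hochberg adjustment, R 4.3.3), and the code was tested on simulated data. KO and WT were compared within each model and day, over both models with model as covariate, and by interactions with day or model. Age was compared in the WT libraries of a model. Alternatives were DESeq2 1.42.0, other factors and filters, a replicate block, Y-linked counts as covariate and leaving out each library. Same-numbered libraries deviated together at Pkd1 P1 alone (correlations 0.435, 0.291 and 0.62), where 0 genes passed with and without the block. No replicates agreed within sampling noise.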

Additional observations from a re-analysis of the deposited data

Results flagged for a closer look

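The KO effect of 5 results differed between P1 and P7 by the edgeR interaction of genotype and day. In Pkd1 the KO minus WT difference was larger at P7 than at P1 by 1.913 for Pf4 (adjusted p = 0.00861), whose KO libraries lay above WT in 3 of 3 cases at P7 and among them at P1. For C1qb in Pkd1 it was larger by 0.965 (adjusted p = 0.0263). In Pkd2 it was larger by 1.188 for Laptm5 (adjusted p = 0.002), by 1.229 for C1qa (adjusted p = 0.00869) and by 1.171 for C1qc (adjusted p = 0.0226). In Pkd1 all P1 KO libraries and all P7 WT libraries lacked Y-linked counts while all P7 KO libraries held them, and with that covariate 0 of 28 genes passed there. In Pkd2 too, all P1 KO libraries lacked Y-linked counts and all P7 KO libraries held them. Its WT libraries held them in replicate 2 at P1 and in replicates 1 and 2 at P7. In Pkd2, Laptm5 kept its call in 19 of 19 alternatives, the covariate among them, C1qa in 18 and C1qc in 14.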

How the results depend on the processing

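The counts of genes that rose kept within 1.5 times of their reported values under TMM or relative log expression factors, with or without the low-count filters and with counts summed over the transcripts of a gene. At P7, DESeq2 passed 14 genes in Pkd1 and 25 in Pkd2. Over the genes that passed, 139 of 180 values in Pkd1 P7, 210 of 280 in Pkd2 P7 and 361 of 399 over both models kept their side of the threshold, and 0 reversed. Counts that moved were 0 in Pkd1 P7 with all 18 libraries and Y-linked counts as covariate, 10 in Pkd2 P7 with all 18 libraries fitted together, and 11 over both models with the Y-linked covariate. For WT age they were 0 in Pkd1 with that covariate and, in Pkd2, 4 with DESeq2. For the interaction of genotype and day they were 7 with DESeq2 and 0 with the Y-linked covariate in Pkd1, and 10 with DESeq2 in Pkd2. The cause was not tested.

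With each library left out in turn the counts ran from 5 to 16 in Pkd1 P7, from 7 to 20 in Pkd2 P7, from 18 to 21 over both models, from 5 to 10 for age in Pkd1 WT, from 0 to 8 for age in Pkd2 WT, from 1 to 10 and from 2 to 5 for the interaction with day in Pkd1 and Pkd2, and from 0 to 2 for the difference between models. At P1 and P3 they were 0 throughout.

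Outside Pkd1 P1, same-numbered libraries shared only a number, with correlations of their deviations from -0.24 to 0.196. With a replicate block 9 genes passed in Pkd1 P7, 20 in Pkd2 P7, 19 over both models and 13 for age in Pkd1 WT, with 1 for age in Pkd2 WT, and 4 and 1 for the interaction with day in Pkd1 and Pkd2. The Y-linked covariate could not be fitted within Pkd1 P3 or Pkd1 P7, where it is constant or equals genotype. Depth limits the rarest gene, Ccr2, whose WT means at P1 and P7 were at most 0.87 CPM per kb.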
